A study of Mus musculus with 18 samples.

Results

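The miR-29 family was followed through mouse knee cartilage in a model of joint injury, a ruptured anterior cruciate ligament (ACL), by small RNA sequencing of 18 libraries. Earlier results of these data were known when the family was chosen. Its members were taken by name from the deposited table of mature microRNAs (miRNAs), by a rule that used no measured value. They are 6 of the 1412 mature miRNAs of the table: mmu-miR-29a-5p, mmu-miR-29a-3p, mmu-miR-29b-1-5p, mmu-miR-29b-3p, mmu-miR-29c-5p and mmu-miR-29c-3p, whose species prefix is left out from here on. A filter on low counts kept 4 of the 6 members, among 428 miRNAs that could be tested, and miR-29a-5p and miR-29b-1-5p did not pass it. The arm miR-29b-2-5p, which shares a hairpin with miR-29b-3p but is no member, is described beside them.

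All mice were C57bl6 per the labels, and C57Bl/6J males of 12 weeks per the study's methods. A single mechanical load ruptured the ACL of the right knee, and the left knee of the same mice served as the contralateral control. Injured and contralateral cartilage was collected at day 1 (n = 3 libraries each) and day 7 (n = 3 each), and mice that received no load gave the naive libraries (n = 6). The labels place all naive libraries at day 7, so the day 1 libraries had no naive control of their own day. Each library was made from the pooled femoral condyle caps of several mice. The labels give 4 mice per library, whereas the methods describe smaller pools in some groups. The methods count 6 naive mice in all, and the supplement says that left and right knees went into separate pools. The 6 naive libraries therefore share mice, and the libraries of a group need not be independent animals.

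miRNAs are short RNAs that guide Argonaute proteins to messenger RNAs by pairing through bases 2 to 8, the seed. A hairpin precursor yields a 5p and a 3p arm, of which usually a single arm is loaded and kept while the other is degraded. The miR-29 family is known for its targets among genes of the extracellular matrix, such as fibrillar collagens and elastin, and is counted among antifibrotic miRNAs. In cartilage it has been studied as a regulator of matrix genes and of signalling in chondrocytes.

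The family comes from a pair of clusters. On chromosome 6 of the mouse genome (GRCm38, minus strand), Mir29a lies at chr6:31062660-31062747 and Mir29b-1 at chr6:31063023-31063093, with 275 bases between the hairpins. Mir29a lies in no other annotated gene, and Mir29b-1 shares 2 bases with an exon of the long noncoding RNA Gm27019. On chromosome 1 (plus strand), Mir29b-2 lies at chr1:195037040-195037120 and Mir29c at chr1:195037547-195037634, with 426 bases between them. Both of the latter lie in an exon of the noncoding host gene A330023F24Rik and opposite an exon of Cd46, a protein-coding gene on the minus strand. Since miR-29b-3p has the same sequence in both clusters, its reads cannot be assigned to either.

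The mature sequences are shown because the 3p arms share their seed and the 5p arms do not. All 6 members were found by name in the RefSeq table of mature miRNAs for GRCm38.p6. Capitals mark bases 2 to 8, counted from the 5′ end. The 3p arms are
miR-29a-3p: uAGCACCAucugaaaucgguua
miR-29b-3p: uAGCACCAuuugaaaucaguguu
miR-29c-3p: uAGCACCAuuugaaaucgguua
and the arms from the opposite side of the hairpins are
miR-29a-5p: aCUGAUUUcuuuugguguucag
miR-29b-1-5p: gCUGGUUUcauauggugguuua
miR-29b-2-5p: cUGGUUUCacaugguggcuuagauu
miR-29c-5p: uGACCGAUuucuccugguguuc

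No other mouse miRNA of the RefSeq table had the seed of the 3p arms. The 5p members shared their seeds with no other miRNA, and miR-29b-2-5p shared its seed with miR-6338. Outside the seed, miR-29c-3p differed from miR-29a-3p by C10U alone. miR-29b-3p differed from miR-29a-3p by C10U, G18A, U21G and A22U and is 1 base longer. A read of miR-29a-3p and a read of miR-29c-3p are thus told apart by a single base, and how the counting treated mismatches at that base is not given in the sources used here.

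The base run that pairs with the shared seed, TGGTGCT, was searched on the sense strand of the longest annotated 3′ UTR of each protein-coding gene (GENCODE vM21, GRCm38). It occurred at least once in 2755 of 21004 genes (13.1%) and in 14 of 20 matrix genes. Those 20 genes were listed because the family is known for such targets, so the count describes the list and is no test. Col5a1, a fibril-regulating collagen chain, held 4 matches, and Col5a3, Eln (elastin) and Lox held 3 each. Col1a2, Col11a2, Sparc, Comp, Acan (aggrecan) and Adamts5 (an aggrecan-cleaving protease) held 0 in this window. Matches in 3 collagens of bone and cartilage matrix are given with the run in capitals. The gene Col1a1 (type I collagen) has it at chr11:94952527-94952548, plus strand, Col2a1 (the main collagen of cartilage) at chr15:97975678-97975699, minus strand, and Col3a1 (type III collagen) at chr1:45348971-45348992, plus strand.
Col1a1: gaaggaatttcTGGTGCTatag
Col2a1: gtcctacacaaTGGTGCTattc
Col3a1: aaatgtctcaaTGGTGCTataa
A match is a description of sequence only, and no messenger RNA was measured in these libraries.

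Library totals ran from 758388 counts (day 7 injured replicate 1) to 4088852 counts (day 7 contralateral replicate 2). Levels are given as CPM, the reads of a miRNA per 1000000 counts of its library, after TMM scaling, a correction for differences in library composition. Between miRNAs they compare read yields, which also depend on how well each sequence ligates and amplifies. In bulk tissue, fewer cells of a type and less RNA per cell cannot be told apart. The cartilage markers miR-140 and miR-455 (4 arms) summed to between 5029 and 10499 CPM per library. Skeletal muscle miRNAs (9 arms, of which 7 were tested, among them miR-1a-3p and miR-133a-3p) summed to between 55121 and 274875 CPM and thus exceeded the cartilage markers in every library. Day 7 contralateral replicate 1 stood apart, and results that rest on it are given with and without it.

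Within the family, miR-29a-3p held nearly all reads. It averaged 3115 CPM ± 836 (SD, n = 18) and ranked 45 among the 1412 miRNAs. It was followed by miR-29b-3p at 82.9 CPM ± 37.9, miR-29c-3p at 29.8 CPM ± 13.7 and miR-29c-5p at 21.2 CPM ± 14.1 (SD, n = 18 each). Of the reads of the 3 seed-sharing arms, miR-29a-3p took between 94.7% and 98.4% in a library, miR-29b-3p between 0.809% and 4.54%, and miR-29c-3p between 0.596% and 1.19%. The lowest level of miR-29a-3p in any library was far above the highest level of miR-29b-3p. miR-29b-3p exceeded miR-29c-3p in 18 of 18 libraries, although their ranges over all libraries overlapped.

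The arm pairs differed in balance. From Mir29a, the 5p arm had between 0 and 22 counts per library against 1959 to 10684 counts of the 3p arm. From Mir29c, the 2 arms were of similar abundance: the ratio of 3p to 5p reads ran from 0.697 to 3.80 with a median of 1.70, and the 3p arm was higher in 14 of 18 libraries. The ranges of these 2 arms over the 18 libraries overlapped, and whether their levels differ within libraries was not tested. miR-29b-2-5p averaged 6.25 CPM ± 2.65 (SD, n = 18), whereas miR-29b-1-5p, the corresponding arm of the other cluster, averaged 1.19 CPM ± 1.03 (SD, n = 18).

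The members that missed the filter were too rare for a comparison of groups. miR-29a-5p had counts of 1, 0 and 3 in the day 1 injured libraries, 6, 9 and 2 in their contralateral controls, 1, 3 and 5 in the day 7 injured libraries, and 0 to 8 in naive libraries. In day 7 contralateral libraries it had 22, 7 and 5 counts, and the 22 fell in the library that stood apart. Its count of 0 in day 1 injured replicate 2 allows a level of up to 2.51 CPM (3 counts, counting error only) and that in naive replicate 3 up to 1.84 CPM. miR-29b-1-5p had between 0 and 5 counts in every library. It was at 0 in 4 libraries, which allows up to between 1.48 and 4.12 CPM depending on the library.

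**Figure D1:**
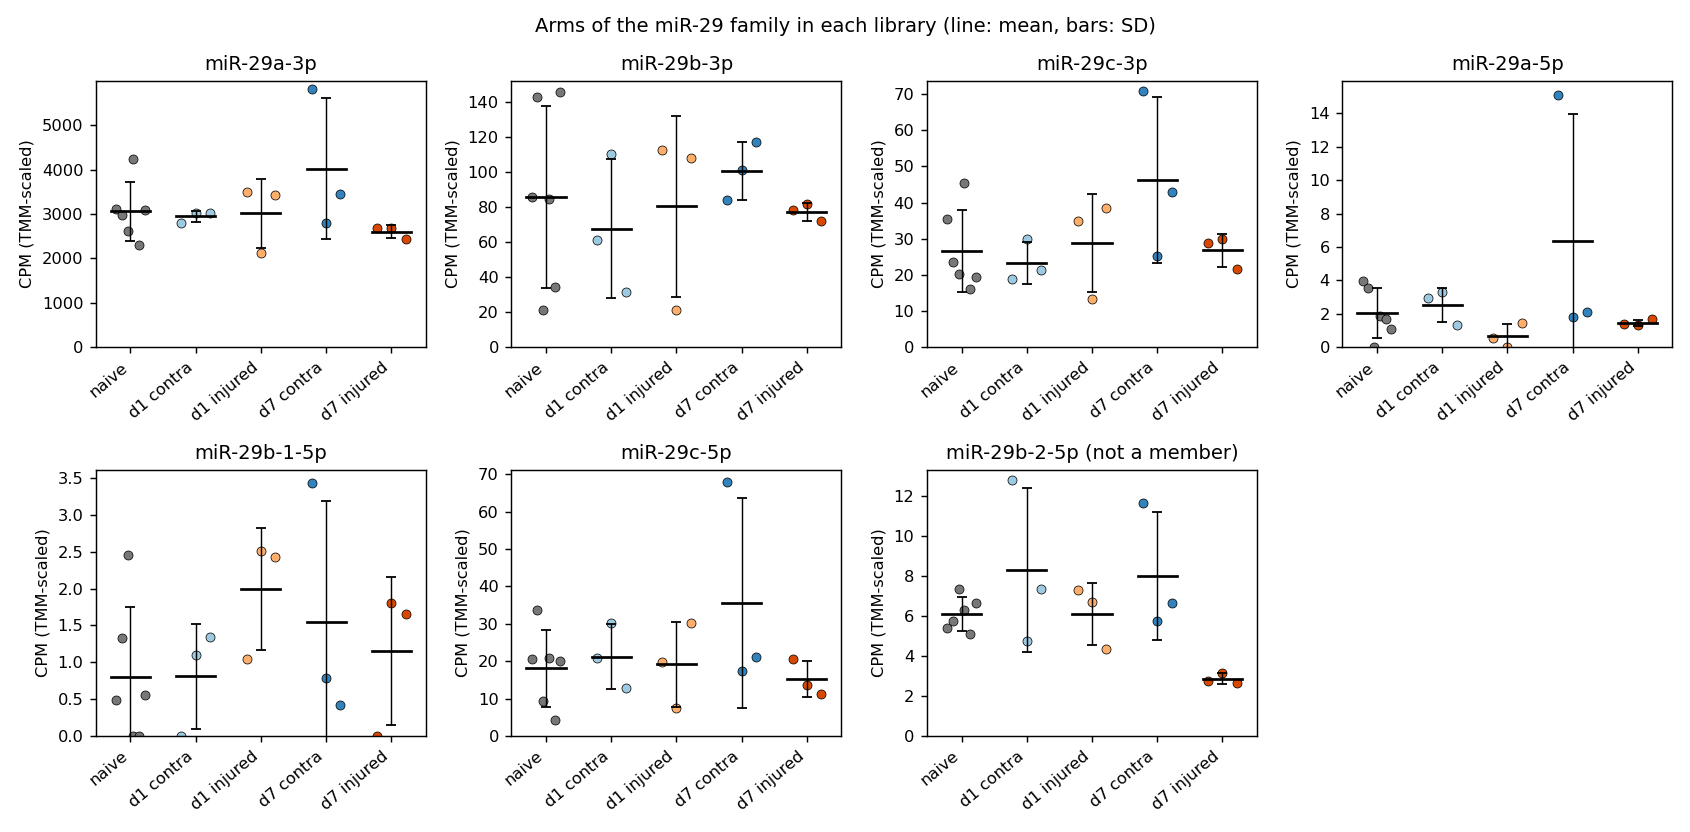
Each panel plots an arm of the miR-29 family, with the 5 groups on the x axis and CPM on the y axis. Points are libraries, the horizontal line is the group mean and bars are the SD, cut at 0. The 3 day 7 injured libraries lie within the naive range for miR-29a-3p, miR-29b-3p, miR-29c-3p and miR-29c-5p, and below all other libraries for miR-29b-2-5p (2.66 to 3.17 CPM).

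Injured cartilage at day 7 was first set against naive cartilage, to ask whether joint injury altered the family. No member passed the test. By limma-voom with Benjamini-Hochberg adjustment, 0 of the 4 members passed an adjusted p of 0.05, and 0 passed an unadjusted p of 0.05, whereas 18.2% of the 428 tested miRNAs were called in this comparison and 26.9% had an unadjusted p under 0.05. edgeR and DESeq2 also called 0 of 4. The median log2 fold change of the 4 members was -0.08, beside -0.0028 over all tested miRNAs.

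miR-29a-3p, the dominant arm, was at 2691, 2680.5 and 2439.7 CPM in the day 7 injured libraries. In naive libraries its lowest, median and highest levels were 2296, 3029.8 and 4244 CPM. All injured values thus lay inside the naive range, in its lower part. The log2 fold change was -0.21 ± 0.24 (SE; adjusted p = 0.598, limma), and its 95% interval, from -0.71 to 0.28, spans a level from 0.612 to 1.22 times that of naive cartilage.

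miR-29b-3p was at 78.3, 81.9 and 71.7 CPM in the day 7 injured libraries. In naive libraries it ranged from 21.5 CPM over a median of 85.1 to 145.6 CPM. The injured libraries were close to each other and sat in the middle of a naive group whose highest library had 6.77 times the level of its lowest. The log2 fold change was 0.13 ± 0.57 (SE; adjusted p = 0.894, limma). Its interval, from -1.06 to 1.32, does not exclude a change of either direction beyond 2-fold.

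Neither arm of miR-29c passed either. miR-29c-3p was at 28.9, 29.9 and 21.6 CPM in day 7 injured libraries and at 16.2 (lowest), 21.9 (median) and 45.4 CPM (highest) in naive libraries. Its log2 fold change was 0.05 ± 0.39 (SE; adjusted p = 0.947, limma). miR-29c-5p was at 20.6, 13.6 and 11.3 CPM in day 7 injured libraries, against 4.27 (lowest), 20.3 (median) and 33.7 CPM (highest) in naive libraries. Its log2 fold change was -0.20 ± 0.57 (SE; adjusted p = 0.840, limma), and for both arms the groups overlapped. Without the 4 libraries of TMM factor over 1.1 described below, of which 2 are naive and none is from day 7 injured knees, the log2 fold changes became -0.33 (miR-29a-3p), -0.51 (miR-29b-3p), -0.13 (miR-29c-3p) and -0.73 (miR-29c-5p), and none was called (adjusted p between 0.228 and 0.879, limma). Those naive libraries held the 2 lowest levels of their group for miR-29a-3p, miR-29b-3p and miR-29c-5p. They also held the lowest naive level of miR-29c-3p, so leaving them out lowers the values of all 4 members by construction.

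Ratios between arms within a library do not depend on how libraries are scaled, so 4 of them were compared between day 7 injured (n = 3) and naive (n = 6) libraries. The log2 ratio of miR-29b-3p to miR-29a-3p was -5.07 ± 0.03 in injured and -5.43 ± 0.98 in naive libraries (SD), a difference of 0.36 (p = 0.595, exact permutation test, two-sided). That of miR-29c-3p to miR-29a-3p differed by 0.29 (p = 0.190, exact permutation test). The 5p to 3p ratio differed by -0.13 for miR-29c (p = 0.810, exact permutation test). For miR-29a it differed by 0.23 (p = 0.929, exact permutation test), but with 0 to 8 counts of the 5p arm, and a value set by the pseudocount where the count is 0, nothing can be read from this ratio. After adjustment over the 4 ratios the lowest p was 0.762, and the smallest p that the 84 splits of these libraries allow is 0.0238.

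**Figure D2:**
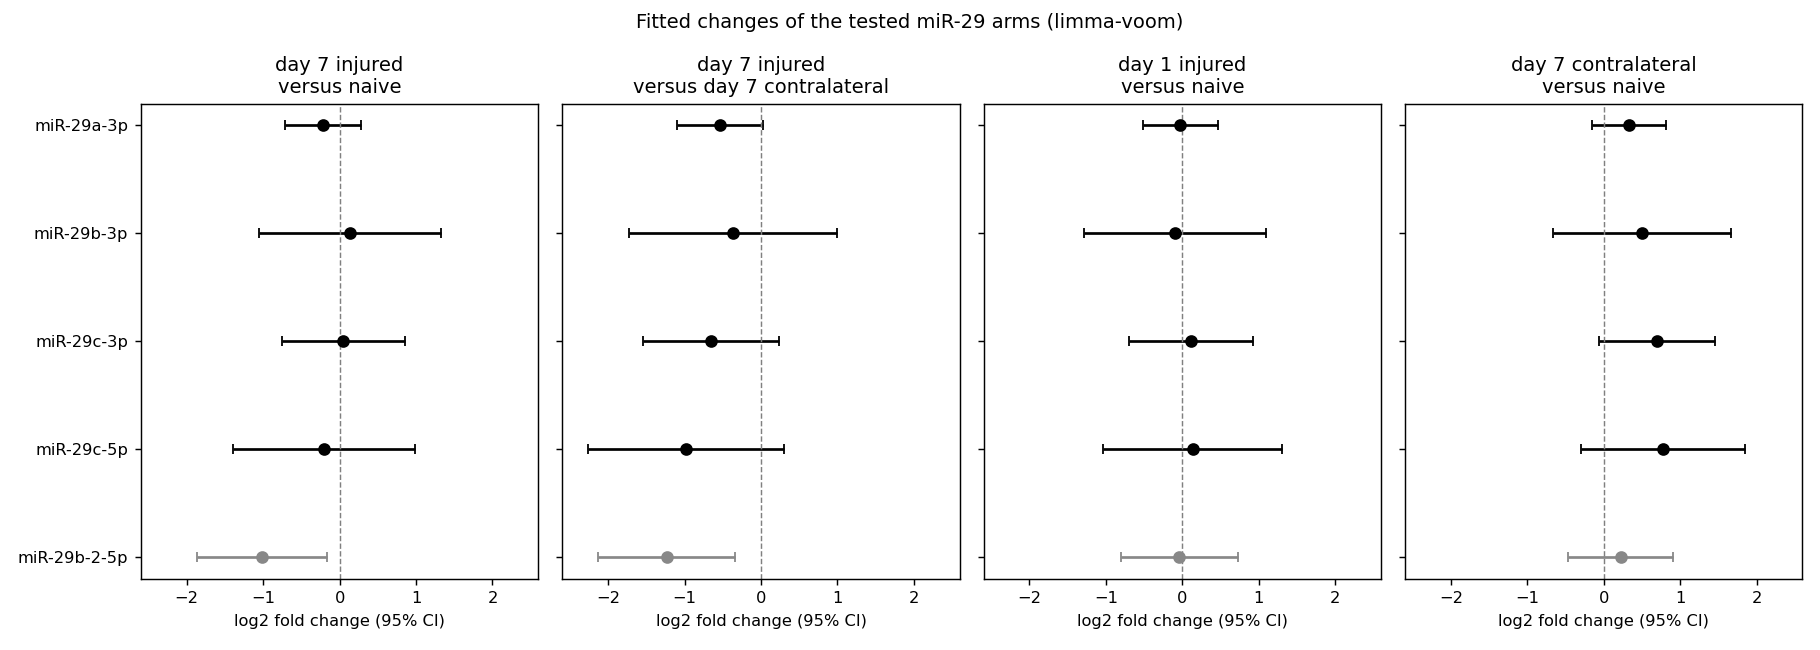
Log2 fold changes (x axis, with 95% intervals from limma-voom) of the 4 tested members and of miR-29b-2-5p (grey) are plotted in 4 comparisons. Every interval of a member includes 0, and the intervals of miR-29b-2-5p exclude 0 in both day 7 injured comparisons before adjustment for multiple tests.

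Against the contralateral knee of the same mice at day 7, all 4 members were lower in injured cartilage, and none passed the test. By limma, 0 of 4 passed the adjusted or the unadjusted threshold (14.7% and 23.1% of all tested miRNAs passed them), and edgeR and DESeq2 called 0 as well. The median log2 fold change of the members was -0.60, beside -0.05 over all tested miRNAs, of which 52.8% lay below 0. This comparison shares its injured libraries with the one against naive cartilage.

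The contralateral libraries had 5807, 2787 and 3459 CPM of miR-29a-3p, and each was above each of the 3 injured libraries. The log2 fold change was -0.54 ± 0.27 (SE; adjusted p = 0.244, limma). For miR-29b-3p, contralateral levels of 83.8, 101.0 and 116.9 CPM also lay above all injured values, at a log2 fold change of -0.37 ± 0.65 (SE; adjusted p = 0.796, limma). Groups did not overlap for these 2 of the 4 members, and for 26.6% of all tested miRNAs. For miR-29c-3p (70.7, 25.3 and 42.8 CPM in contralateral libraries) and miR-29c-5p (68.0, 17.5 and 21.2 CPM) the groups overlapped, with log2 fold changes of -0.65 ± 0.42 and -0.98 ± 0.61 (SE; adjusted p = 0.386 and 0.351, limma).

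The first contralateral value of each of these arms except miR-29b-3p was the highest of all 18 libraries, and all came from day 7 contralateral replicate 1. Without it, the log2 fold changes became -0.19 for miR-29a-3p, -0.43 for miR-29b-3p, -0.25 for miR-29c-3p and -0.40 for miR-29c-5p, with adjusted p between 0.724 and 0.785 (limma). In that library the skeletal muscle miRNAs summed to 249997 CPM, the highest of its group. The leukocyte (16974 CPM) and vascular (98208 CPM) marker miRNAs had their highest sums of the 18 libraries there, the cartilage markers their lowest (5029 CPM), and the other antifibrotic miRNAs listed below summed to 44238 CPM against 79190 to 118217 CPM in the remaining libraries. The part of these lists in the results was not tested.

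In contralateral versus naive cartilage at day 7, no member passed the test. Its 4 log2 fold changes were between 0.33 (miR-29a-3p) and 0.78 (miR-29c-5p), all with an adjusted p of at least 0.675 (limma, 0% of all tested miRNAs called, 5.37% below an unadjusted p of 0.05). Without day 7 contralateral replicate 1 they lay between 0.011 and 0.60, where miR-29b-3p rose and the other members fell. The value of miR-29b-3p (0.50) became -0.09 without the 4 libraries of TMM factor over 1.1, which include the naive libraries lowest in this arm.

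At day 1, too, no member passed the test against its controls. miR-29a-3p was at 3486, 2116 and 3429 CPM in injured and at 2789.7, 3027 and 3013 CPM in contralateral libraries. The second injured library lay below the lowest naive library (2296 CPM). The other injured libraries lay above the naive median of 3029.8 CPM, and the contralateral libraries lay below it. miR-29b-3p was at 112.3, 20.9 and 107.9 CPM in injured and 61.1, 110.3 and 31.5 CPM in contralateral libraries. In the injured group 1 library lay far below the others, and the contralateral values were spread more evenly. miR-29c-3p was at 35.0, 13.4 and 38.4 CPM in injured and 18.7, 29.8 and 21.4 CPM in contralateral libraries. The second injured library was the lowest of its group in all 4 tested members.

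Log2 fold changes of the 4 members lay between -0.09 and 0.13 in day 1 injured versus naive cartilage and between -0.23 and 0.23 in day 1 injured versus contralateral cartilage (adjusted p of at least 0.992 and 0.997, limma). At day 1, 0% of all tested miRNAs were called in either comparison, and 1.87% had an unadjusted p under 0.05 in each, none of them a member. Day 1 contralateral versus naive cartilage gave -0.21 to 0.37 with adjusted p of 0.996 (0% called, 0.935% with an unadjusted p under 0.05). Between day 7 and day 1 injured cartilage, where 15.7% of all tested miRNAs were called and 27.6% had an unadjusted p under 0.05, members moved by -0.34 to 0.23 and none was called (lowest adjusted p = 0.751, limma).

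Whether the injury effect differed between the days was tested as the difference of the injured-to-contralateral changes. All 4 members were lower at day 7 on this scale, from -0.49 (miR-29b-3p) to -0.89 (miR-29c-3p), with a median of -0.65 beside 0.02 over all tested miRNAs. None passed the test (lowest adjusted p = 0.562, limma), whereas 6.78% of all tested miRNAs were called and 16.4% had an unadjusted p under 0.05. Without day 7 contralateral replicate 1, the values ran from -0.51 to -0.14.

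miR-29b-2-5p was the arm whose day 7 injured libraries stood apart. It had 2, 7 and 8 counts in them, or 2.75, 3.17 and 2.66 CPM. Naive libraries ran from 5.12 over a median of 6.04 to 7.37 CPM, day 7 contralateral libraries were at 11.7, 5.74 and 6.65 CPM, and the day 1 libraries were at 4.37 CPM or more. Every day 7 injured library was therefore below each of the other 15. The groups did not overlap for 24.1% of all tested miRNAs in the comparison with naive cartilage.

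The log2 fold change of miR-29b-2-5p was -1.01 ± 0.41 (SE) against naive and -1.23 ± 0.43 (SE) against day 7 contralateral cartilage. These did not pass the adjusted threshold (adjusted p = 0.101 and 0.0620, limma). The call depended on the method. Against naive cartilage it passed with sample quality weights (adjusted p = 0.0222, limma) and in a fit of the compared groups alone (adjusted p = 0.0431, limma), and against contralateral cartilage it passed with edgeR (adjusted p = 0.0315) and with the log10 library total as a covariate (adjusted p = 0.0304, limma). Over all alternatives the adjusted p ran from 0.0222 to 0.496 against naive and from 0.0304 to 0.381 against contralateral cartilage, and without day 7 contralateral replicate 1 the latter change was -0.93 (adjusted p = 0.222, limma). The counts are few: 2 counts in day 7 injured replicate 1 have an exact 95% Poisson interval of 0.242 to 7.23 counts, which reaches 9.93 CPM (counting error only). From the same hairpin, miR-29b-3p had a Pearson r of -0.16 with this arm over libraries (n = 18, a description, and -0.20 without day 7 contralateral replicate 1), and reads of miR-29b-3p come from both clusters.

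miR-29b-3p varied widely within the naive and day 1 groups (CV of 58.8% to 64.1%). It varied less within the day 7 injured (6.67%) and day 7 contralateral (16.5%) groups. It was between 20.9 and 34.2 CPM in 4 libraries (naive replicates 3 and 5, day 1 injured replicate 2 and day 1 contralateral replicate 3) and between 61.1 and 145.6 CPM in the other 14. miR-29a-3p did not part these libraries in the same way, with 2116 to 3013 CPM in the 4 and 2439.7 to 5807 CPM in the 14. The ratio of miR-29a-3p to miR-29b-3p reads was accordingly 67.2 to 122 in the 4 and 20.9 to 69.3 in the others. It was narrow in the day 7 injured libraries, at 34.4, 32.7 and 34.0.

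These 4 libraries were also those with TMM factors of at least 1.20, against at most 1.06 elsewhere, and held 864123 to 1284839 counts in all. The lowest total, in day 7 injured replicate 1, went with 78.3 CPM of miR-29b-3p. The part of library composition or depth in the level of miR-29b-3p was not tested.

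**Figure D3:**
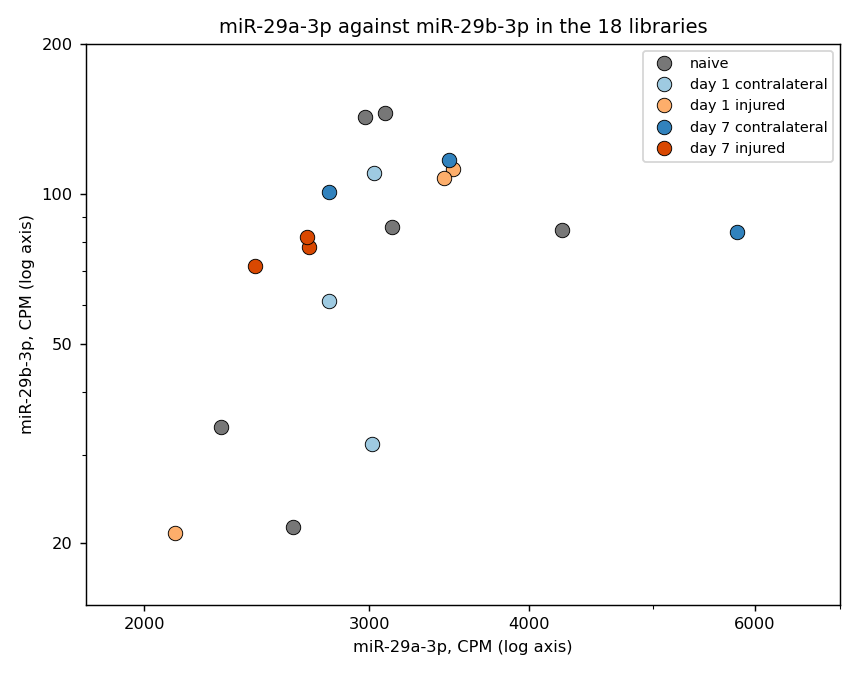
CPM of miR-29b-3p (y axis, log scale) is plotted against CPM of miR-29a-3p (x axis, log scale), with a point per library coloured by group. A set of 4 libraries from 3 groups lies at 20.9 to 34.2 CPM of miR-29b-3p, below the other 14, while miR-29a-3p spans 2116 to 5807 CPM.

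The miRNAs most like each 3p arm were found by Pearson's r of log2 CPM over the 18 libraries, among 423 other tested miRNAs. The libraries share depth, pool and group differences, so these are descriptions. For miR-29b-3p they were miR-32-5p (r = 0.949), miR-218-5p (r = 0.904) and miR-3081-3p (r = 0.894), with r of 0.960, 0.923 and 0.900 without day 7 contralateral replicate 1, and each of them had lower levels in the same 4 libraries than its median. miR-32-5p, for example, was at 28.3 to 58.9 CPM in the 4 and at 76.4 CPM or more in the others. G or C made up 34.8% of the bases of miR-29b-3p, 31.8% of miR-32-5p and 38.1% of miR-218-5p, but 60.9% of miR-3081-3p. The part of base composition in these levels was not tested.

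**Figure D4:**
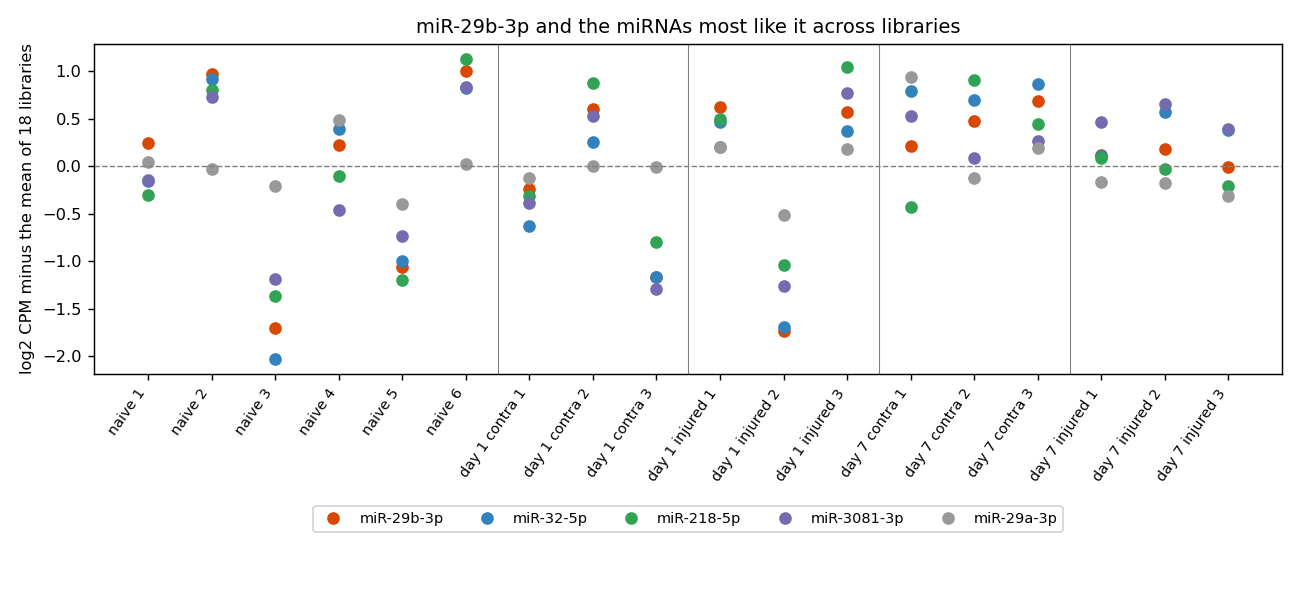
Log2 CPM minus the mean of the 18 libraries (y axis) is plotted per library (x axis, grouped) for miR-29b-3p, its 3 most similar miRNAs and miR-29a-3p. miR-29b-3p, miR-32-5p, miR-218-5p and miR-3081-3p fall together in naive replicates 3 and 5, day 1 contralateral replicate 3 and day 1 injured replicate 2, where miR-29a-3p stays closer to its mean.

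For miR-29a-3p the most similar miRNAs were miR-1a-1-5p (r = 0.825), miR-133b-3p (r = 0.811) and miR-135a-5p (r = 0.777), with r of 0.686, 0.589 and 0.621 without day 7 contralateral replicate 1. The first pair belongs to the miR-1 and miR-133 families of skeletal muscle. For miR-29c-3p they were miR-1a-1-5p (r = 0.783), miR-101a-3p (r = 0.776) and miR-199b-5p (r = 0.775), with r of 0.658, 0.704 and 0.635 without it. The summed CPM of the skeletal muscle miRNAs, on a log2 scale, had r = 0.759 with miR-29a-3p, 0.705 with miR-29b-3p, 0.670 with miR-29c-3p and 0.871 with miR-29c-5p. Without day 7 contralateral replicate 1 these were 0.772, 0.731, 0.614 and 0.870. The vascular markers had r of 0.555, 0.811, 0.639 and 0.831 with the same arms (0.424, 0.858, 0.547 and 0.801 without that library), and the leukocyte markers had 0.677, 0.473, 0.575 and 0.647 (0.376, 0.594, 0.300 and 0.438 without it). For the cartilage markers the r were -0.228, 0.375, 0.0046 and -0.116 with and 0.248, 0.485, 0.458 and 0.262 without that library, so the sign turned for miR-29a-3p and miR-29c-5p. The erythroid markers had r between -0.371 and 0.0739 (-0.382 to -0.0104 without it). The muscle sum was 69657 to 133963 CPM in day 7 injured, 67532 to 198958 CPM in naive and 136738 to 249997 CPM in day 7 contralateral libraries. The first overlapped the second and lay below the third, and its part in the levels of the family was not tested.

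Among the members, miR-29a-3p and miR-29c-3p moved together most closely over libraries (r = 0.894, and 0.839 without day 7 contralateral replicate 1). miR-29a-3p and miR-29b-3p had r = 0.474 (0.606 without it), and the 2 arms of miR-29c had r = 0.753 (0.635 without it). miR-29a-3p and miR-29c-3p come from different clusters but differ in sequence by C10U alone. The part of reads counted for the wrong arm in their r was not tested.

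The family was lastly set beside other miRNAs known for roles in fibrosis, in day 7 injured versus naive cartilage. In a list of 6 profibrotic miRNAs, 3 rose and none fell (median log2 fold change 1.06). miR-21a-5p rose by 1.85 ± 0.29 (SE; adjusted p = 8.2e-05, limma). The arms miR-199a-5p and miR-214-3p, from a miRNA cluster named in the study, rose by 1.19 ± 0.24 each (SE; adjusted p = 0.00073 and 0.00091, limma). The values of miR-34a-5p (0.94), miR-155-5p (0.30) and miR-192-5p (-0.04) did not pass. The levels of miR-21a-5p, miR-199a-5p and miR-214-3p had been seen before the list was written.

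In a list of 12 further antifibrotic miRNAs, of which 11 were tested, 2 fell and none rose (median log2 fold change -0.42). miR-30d-5p fell by 0.62 ± 0.15 (SE; adjusted p = 0.0039, limma) and miR-200c-3p, an epithelial miRNA, fell by 0.98 ± 0.30 (SE; adjusted p = 0.025, limma). miR-133a-3p, a muscle miRNA of the list, had -0.95 ± 0.42 (SE; adjusted p = 0.141, limma). The share of all tested miRNAs called higher was 14.5%, and that called lower was 3.74%.

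Markers of cell types in the same comparison are given for reference. The 4 cartilage arms had a median log2 fold change of 0.20 (lowest adjusted p = 0.138, miR-455-5p, limma), the 7 tested muscle arms -0.53 (lowest adjusted p = 0.141, miR-133a-3p, limma) and the 6 vascular arms 0.18 (lowest adjusted p = 0.097, miR-145a-5p, limma). Of 7 erythroid arms, 4 fell, all of them copies or arms of miR-486, of which miR-486a-5p and miR-486b-5p have equal counts and are 1 measurement. The erythroid sums, here and above, include both and thus count that measurement more than once. Of 8 leukocyte arms, 1 fell (miR-150-5p, by 1.54 ± 0.36, SE; adjusted p = 0.0032, limma). Their summed levels in day 7 injured against naive libraries were 5081 to 7028 against 10449 to 15996 CPM (erythroid), 8236 to 9687 against 6655 to 11228 CPM (leukocyte) and 74494 to 81139 against 48414 to 83557 CPM (vascular). Their part in the levels of the family was not tested.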

How the data were processed

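Small RNA libraries were made from pooled mouse cartilage. The authors trimmed reads with Trim Galore 0.6.6, aligned them to mature miRBase sequences with Bowtie 1.3.0 and counted them with SAMtools 1.12, and the deposited table holds raw counts per mature miRNA. How reads matching several miRNAs were counted is not given in the sources used here. Table rows were matched to samples by library number, as the prefixes differ. The 5 groups came from the treatment labels, and replicates were numbered in accession order. The study modelled libraries of a shared mouse pool, but the labels do not name the pools, so libraries were treated as independent and p-values measure the spread between these libraries.

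Counts were filtered with filterByExpr of edgeR 4.0.16 (minimum count 10, minimum total 15), scaled by TMM and fitted with limma 3.58.1 (voom, 1 mean per group, all 18 libraries) in R 4.3.3. Each of 8 contrasts was adjusted by Benjamini-Hochberg (0.05). Ratios of arms (pseudocount 0.5) were compared by exact permutation tests in scipy 1.17.1. On simulated counts of 428 miRNAs for day 7 injured versus naive cartilage, the fit recovered 96.4% of 196 tested miRNAs changed 4-fold. Smaller changes, such as those estimated for the members, were not simulated, so this rate does not bear on them. Levels in libraries of 758388 to 4088852 counts carry counting error besides the intervals given, and PCR copies are not independent molecules.

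Alternatives were DESeq2 1.42.0 size factors, library totals only, no filter, a stricter filter (10 counts or more in each library), quasi-likelihood testing in edgeR, the DESeq2 test, quality weights, only the groups compared, the log10 library total as a covariate, other pseudocounts for ratios, and leaving out each library. Leaving out the 4 libraries with TMM factors over 1.1 was added after seeing the data.

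The members and lists were chosen with earlier results of these data known. The genes named are all members, miRNAs sharing a seed, miR-29b-2-5p, the 3 miRNAs most like each 3p arm (log2 CPM with a prior count of 2), and for each list all members if at most 6 were tested, otherwise the 3 with the smallest p in day 7 injured versus naive cartilage, of which those with little bearing on the family are given by ranges. The matrix genes searched for the seed match were listed for their known role, after values had been seen.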

Additional observations from a re-analysis of the deposited data

How the results depend on the processing

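No member was called in any of the 8 comparisons under any of the 28 alternatives, and the counts of 0 did not change. The lowest adjusted p of a member was 0.0846 (miR-29a-3p in day 7 injured versus contralateral cartilage without day 7 contralateral replicate 2, limma), and over that value's alternatives it ran up to 0.724. Of 888 member values under alternatives, 81 changed sign, all of values that were not called. The cause was not tested. Scaling by library totals only moved the median of all miRNAs to -0.13 in day 7 injured versus naive cartilage, and to between -0.15 and 0.14 over the 8 comparisons. No paired analysis was possible because the replicate numbers follow accession order and the labels pair no libraries.

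In day 7 injured versus naive cartilage, miR-29b-3p became -0.0011 with library totals only, -0.16 with edgeR, -0.14 with DESeq2, -0.14 with quality weights, -0.16 with the log10 total as covariate and -0.51 without the 4 libraries of TMM factor over 1.1. There, miR-29c-3p became -0.075 with library totals only, -0.016 with edgeR, -0.017 with DESeq2, -0.082 with quality weights and -0.13 without those 4, and miR-29c-5p, which kept its sign, moved from -0.20 to -0.73 without those 4. In day 1 injured versus naive cartilage, library totals only gave -0.067 for miR-29c-5p and -0.069 for miR-29c-3p, quality weights gave 0.027 for miR-29a-3p, 0.12 for miR-29b-3p and 0.028 for miR-29b-2-5p, the covariate gave 0.031 for miR-29b-2-5p, and leaving out the 4 libraries gave 0.0020 for miR-29a-3p. In day 1 injured versus contralateral cartilage, library totals only gave -0.11 for miR-29a-3p and quality weights 0.096 for miR-29c-5p. Between day 7 and day 1 injured cartilage, miR-29b-3p became -0.070 with edgeR, -0.013 with DESeq2, -0.26 with quality weights and -0.43 without the 4 libraries, and miR-29c-3p became 0.045 with at least 10 counts in every library. In day 7 contralateral versus naive cartilage, miR-29b-3p became -0.057 with the covariate and -0.089 without the 4 libraries.

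Leaving out each library in turn gave the following ranges where a sign changed. In day 7 injured versus naive cartilage they were -0.17 to 0.38 (miR-29b-3p), -0.44 to 0.040 (miR-29c-5p) and -0.026 to 0.26 (miR-29c-3p). In day 1 injured versus naive cartilage they were -0.25 to 0.12 (miR-29a-3p), -0.57 to 0.56 (miR-29b-3p), -0.36 to 0.53 (miR-29c-5p), -0.23 to 0.45 (miR-29c-3p) and -0.31 to 0.14 (miR-29b-2-5p). In day 1 injured versus contralateral cartilage they were -0.16 to 0.22 (miR-29a-3p), -0.34 to 0.84 (miR-29b-3p), -0.66 to 0.23 (miR-29c-5p), -0.049 to 0.64 (miR-29c-3p) and -0.77 to 0.043 (miR-29b-2-5p). Between day 7 and day 1 injured cartilage they were -0.30 to 0.076 (miR-29a-3p), -0.40 to 0.74 (miR-29b-3p), -0.70 to 0.20 (miR-29c-5p) and -0.37 to 0.32 (miR-29c-3p). The injury effect at day 7 against day 1 ran from -1.15 to 0.019 for miR-29b-3p. In day 7 contralateral versus naive cartilage miR-29b-2-5p ran from -0.046 to 0.45, and in day 1 contralateral versus naive cartilage the ranges were -0.71 to 0.15 (miR-29b-3p), -0.0053 to 0.59 (miR-29c-5p) and -0.17 to 0.63 (miR-29b-2-5p). Differences of log2 ratios ran from -0.23 to 0.47 (miR-29a-5p to miR-29a-3p) and from -0.35 to 0.12 (miR-29c-5p to miR-29c-3p). With at least 10 counts in every library, miR-29c-5p and miR-29b-2-5p had no value.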
